A study of Mus musculus with 12 samples.

Results

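A set of 25 named non-coding RNAs, out of 11806 genes in the authors' deposited table, was compared between vitrified and fresh mouse ovarian follicles. Vitrification preserves tissue by cooling it so fast that it turns to glass rather than ice. The set was chosen by gene symbol, with earlier results of these data known. It holds 10 host RNAs of small nucleolar RNAs (the Snhg genes and Gas5), 3 host RNAs of microRNAs, 9 antisense RNAs whose symbols end in os, and 3 long RNAs of imprinted regions (Meg3, H19 and Kcnq1ot1). A further 13 symbols that end in the same letters, Fos and the Wdr83os and Zbtb8os genes among them, were left out because the annotation lists them as protein-coding. Single follicles of CD-1 mice, which are outbred, were taken at 16 days of age, and the RNA of 6 vitrified and 6 fresh ones was sequenced. In both groups each follicle sat in a bead of 0.5% alginate for 8 days with 10 mIU/mL of recombinant follicle-stimulating hormone, and its RNA was then made into a library by Smart-seq. Whether follicles came from the same animal is not stated in the labels. The p-values therefore measure the spread between follicles, and a difference between groups cannot be told apart from one between animals. The values analysed were, for each gene, a total pooled over the 12 libraries, a fold change of vitrified over fresh and its p-value, so no level is given here for a single follicle. A follicle holds several cell types, and fewer cells of a type and less RNA per cell cannot be told apart.

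Host RNAs carry small RNAs in their introns or exons. The hosts of small nucleolar RNAs, which guide the chemical modification of ribosomal and spliceosomal RNA, are spliced to release them, and the leftover spliced RNA is often removed by nonsense-mediated decay. Many of these hosts begin with a stretch of pyrimidines, as the messenger RNAs of ribosomal proteins do, and so respond to growth signals. MicroRNA hosts are cut by the Drosha complex to release hairpins, and mature microRNAs repress messenger RNAs that match their seed. Antisense RNAs lie on the strand opposite a coding gene, often at a shared promoter. H19 and Meg3 are made from the maternal and Kcnq1ot1 from the paternal chromosome, and the last of these silences its neighbours in cis.

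The microRNAs within the 3 hosts are shown first because they are what these hosts are known for. The libraries measured the host RNA and not the mature microRNA. Sequences are from RefSeq (GRCm38.p6), 5′ to 3′, with the seed, bases 2 to 8, in capitals. Mir17hg, on chromosome 14, encodes the cluster that is best known for promoting cell proliferation, and its main mature forms fall into seed groups. The first pair below shares the seed of the miR-17 family, and the second pair shares the seed of the miR-19 family.
mmu-miR-17-5p: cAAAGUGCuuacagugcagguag
mmu-miR-20a-5p: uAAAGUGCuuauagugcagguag
mmu-miR-19a-3p: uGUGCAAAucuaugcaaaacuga
mmu-miR-19b-3p: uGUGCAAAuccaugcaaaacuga
mmu-miR-18a-5p: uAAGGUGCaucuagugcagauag
mmu-miR-92a-3p: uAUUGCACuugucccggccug

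Mir22hg, on chromosome 11, holds 1 hairpin, that of miR-22, and Mir99ahg, on chromosome 16, holds let-7c, miR-99a and miR-125b. None of these shares a seed with another.
mmu-miR-22-3p: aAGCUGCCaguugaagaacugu
mmu-miR-99a-5p: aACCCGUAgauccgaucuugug
mmu-let-7c-5p: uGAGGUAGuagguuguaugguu
mmu-miR-125b-5p: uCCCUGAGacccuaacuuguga

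One RNA of the set rose in vitrified follicles, the antisense RNA Kirrel3os, which was 7.07-fold higher per the authors' deposited table. None of the others passed the threshold of 0.05 on the authors' adjusted p, and their log2 fold changes per the authors' deposited table lay between -0.32 and 0.61 among those tested. An adjusted p was given for 21 of the 25 RNAs, and the other 4 (H19, Phtf1os, Snhg8 and Snhg12) had pooled totals below the lowest total that received one, 59.5 per the authors' deposited table. The call of Kirrel3os makes 1 of 21, against 0.529% of the 10963 genes tested (0.246% higher and 0.283% lower) per the authors' deposited table. It was also the only tested RNA of the set with a change of 2-fold or more, which 1.77% of all genes tested had. At an unadjusted p under 0.05 the count was again 1 of 21, or 4.76%, against 7.02% of all genes tested (3.24% higher and 3.79% lower), so the set's share lay near or below the background. Higher values were found for 13 and lower values for 8 of the 21, or 61.9% higher, against 46.8% of all genes tested. The median log2 fold change of the 21 was 0.24, against -0.02 over all genes tested, with a median standard error of 0.37 for a single RNA of the set. The 95% interval lay within 2-fold for 10 of the 21, against 69.1% of all genes tested. Standard errors and intervals were computed here from the fold change and p of each gene.

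**Figure D1:**
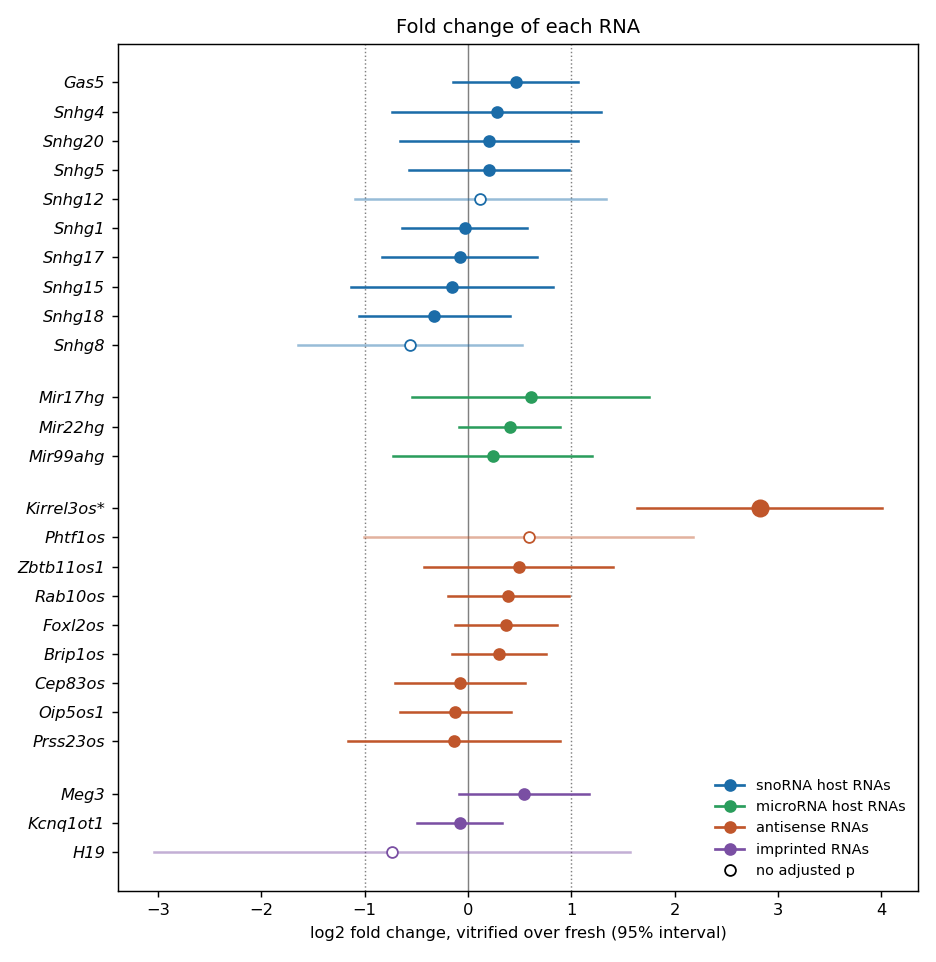
Log2 fold change of vitrified over fresh for each of the 25 RNAs (x axis, in log2 units), with points for the deposited value and lines for the derived 95% interval. Colours mark the 4 classes, open points have no adjusted p, dotted lines mark 2-fold, and the asterisk marks Kirrel3os, whose interval of 1.64 to 4.01 alone lies clear of 0.

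Kirrel3os lies on chromosome 9 from 34918233 to 34929509 (GRCm38), on the minus strand within the gene of Kirrel3, an immunoglobulin-domain adhesion protein related to nephrin. In the GENCODE model its 4 exon blocks all fall in 1 intron of Kirrel3 and share 0 bases with Kirrel3 exons. Its pooled total was 113 per the authors' deposited table, about 9.42 per library, so it ranks low, above 17.6% of the genes tested. Its log2 fold change was 2.82 (95% interval 1.64 to 4.01, standard error 0.60) with p = 3.0e-06 and an adjusted p of 0.0026 per the authors' deposited table, the 13th lowest p of all genes. Among 1230 tested genes with a total within 1.2 times its own, 3 had a log2 fold change at least as far from 0, itself included, and 5 passed the threshold, or 0.407%. Its standard error was above their median of 0.41. Of its sequence windows of 50 bases, 0.667% occur in the transcripts of another gene.

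Kirrel3 itself had a pooled total of 96.5 and a log2 fold change of 1.01 (0.19 to 1.83) with p = 0.015 and an adjusted p of 0.48 per the authors' deposited table, so it did not pass. Both RNAs of the locus therefore had higher values in vitrified follicles, with intervals that meet only between 1.64 and 1.83. The difference between them was not tested, since both come from the same libraries. The sources used here do not say whether counting used strand. Unless the Smart-seq libraries kept strand and counting used it, reads of Kirrel3os and of unspliced Kirrel3 RNA cannot be told apart. Whether the call reflects Kirrel3os alone was not tested. The call depends on the distribution behind p: if it was normal, a t distribution (10 degrees of freedom) puts 0 genes of the whole table past the threshold, and the adjusted p of Kirrel3os at 0.62.

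**Figure D2:**
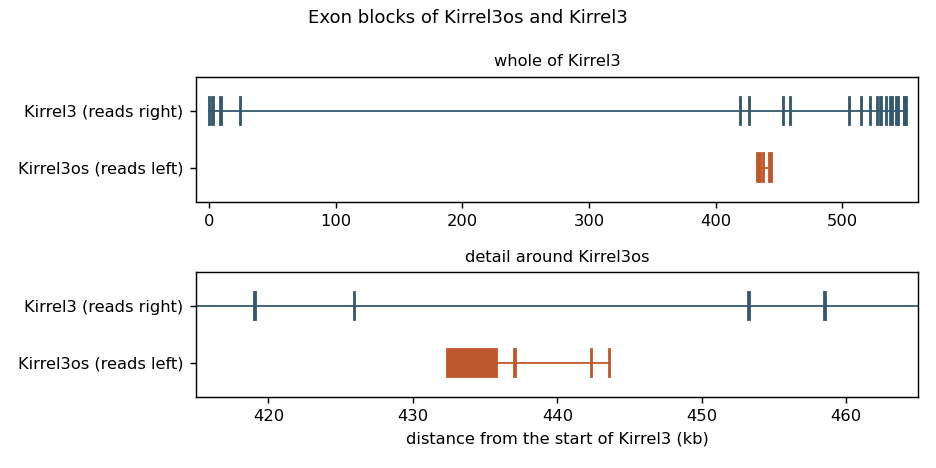
Map of the exon blocks (boxes) of Kirrel3 and Kirrel3os along the distance in kb from the start of Kirrel3, over the whole gene (upper panel) and around Kirrel3os (lower panel), from GENCODE M21. The 4 blocks of Kirrel3os, read leftwards, lie in 1 intron of Kirrel3, read rightwards, and touch none of its exons.

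The annotations differ on where Kirrel3os starts. RefSeq gives starts at 35000210 and 35007695, both upstream of the GENCODE start, so its placement above holds for the GENCODE model alone. The start at 35007695 lies within a GENCODE exon block of Kirrel3, 521.799 to 521.904 kb from the Kirrel3 start. The stretch printed below holds that whole block. The promoter of the outermost start (chr9:35007646-35007945, minus strand) is printed because Kirrel3os is the RNA that was called, with the first transcribed bases in capitals.
Kirrel3os: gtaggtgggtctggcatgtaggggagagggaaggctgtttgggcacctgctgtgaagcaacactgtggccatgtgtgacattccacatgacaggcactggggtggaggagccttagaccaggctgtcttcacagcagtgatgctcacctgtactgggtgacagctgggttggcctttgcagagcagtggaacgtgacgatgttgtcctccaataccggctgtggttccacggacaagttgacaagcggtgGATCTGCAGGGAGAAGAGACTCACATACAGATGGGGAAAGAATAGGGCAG

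That stretch holds 5 CG pairs, against a median of 7 over 32851 RefSeq starts. It holds the letters CCAAT on one of its strands, as do 37.4% of all starts, and not TATAAA, which 13.6% of starts hold. The matching stretch at the other RefSeq start, 35000210, holds 4 CG pairs and neither TATAAA nor CCAAT. Which start is used in these follicles was not tested. These matches describe the letters only.

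Foxl2os has the highest pooled total per length of the set, 204 per kb of exon. It shares a promoter with Foxl2, the forkhead factor that keeps granulosa cells, the hormone-making cells around the oocyte, in their identity. The starts of the 2 genes lie 11 bases apart on chromosome 9, and their exons share 12 bases. Its pooled total was 675 and its log2 fold change 0.37 (-0.12 to 0.86) with p = 0.14 per the authors' deposited table. Foxl2, with a pooled total of 644, stood at -0.40 (-0.87 to 0.06) with p = 0.090 per the authors' deposited table. The pair had opposite signs, and both intervals include 0. The shared promoter, read from the side of Foxl2os (chr9:98955261-98955560, minus strand), is printed with the first transcribed bases of Foxl2os in capitals. It holds 28 CG pairs and neither TATAAA nor CCAAT on either strand.
Foxl2os: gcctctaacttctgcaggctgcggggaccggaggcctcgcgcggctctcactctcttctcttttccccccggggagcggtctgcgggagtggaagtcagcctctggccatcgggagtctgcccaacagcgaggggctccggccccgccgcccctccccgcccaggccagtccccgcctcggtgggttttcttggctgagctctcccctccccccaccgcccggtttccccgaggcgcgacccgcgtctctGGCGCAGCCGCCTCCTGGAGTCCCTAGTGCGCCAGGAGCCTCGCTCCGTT

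The other antisense RNAs did not pass the threshold, nor did the coding genes beside them. Rab10os had a log2 fold change of 0.39 (-0.19 to 0.97) per the authors' deposited table. Rab10, a small GTPase of membrane traffic, stood at 0.63 (0.19 to 1.06) with p = 0.0052 and an adjusted p of 0.30 per the authors' deposited table, and the exons of the pair share 143 bases. Brip1os stood at 0.30 (-0.15 to 0.76) per the authors' deposited table. The 3 coding genes beside it had negative values per the authors' deposited table, with -0.42 for Brip1, a helicase of DNA crosslink repair whose start lies 177 bases away, -0.30 for Ints2 and -0.34 for Med13, whose exons it overlaps. None of these 3 had an unadjusted p under 0.05.

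Cep83os had a log2 fold change of -0.07 (-0.70 to 0.56) per the authors' deposited table, against 0.47 (-0.29 to 1.23) for Cep83, a centriole protein gene whose start lies 78 bases away. Zbtb11os1 stood at 0.49 (-0.42 to 1.41) per the authors' deposited table, against -0.12 for the zinc finger gene Zbtb11. Prss23os stood at -0.13 (-1.16 to 0.89) and the serine protease gene Prss23 at -0.01 per the authors' deposited table, and their exons share 864 bases. Since 66.4% of the windows of Prss23os occur in another gene, its count is uncertain. Phtf1os, which has no adjusted p, stood at 0.59 on a pooled total of 45.6 per the authors' deposited table, and 60.0% of its windows occur in another gene. Phtf1 stood at 0.22 and Rsbn1, which shares 2101 exon bases with Phtf1os, at -0.69 (-1.42 to 0.03) per the authors' deposited table.

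Oip5os1, also known as Cyrano, a conserved RNA that brings about the decay of miR-7, had the highest pooled total of the antisense class, 927 per the authors' deposited table. Its log2 fold change was -0.12 (-0.66 to 0.42) with p = 0.66 per the authors' deposited table, an interval that lies within 2-fold. Its coding namesake Oip5 was not analysed here.

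**Figure D3:**
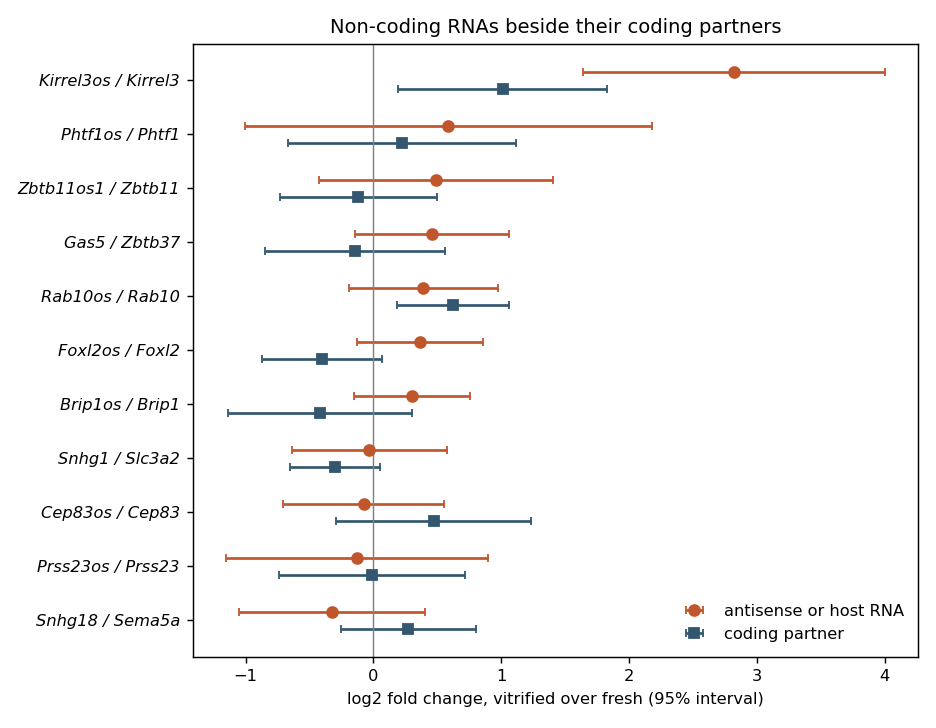
Log2 fold change of vitrified over fresh (x axis, in log2 units) for 11 non-coding RNAs (circles) and the coding gene that their symbol names or that starts beside them (squares), with derived 95% intervals. Kirrel3os and Kirrel3 lie farthest to the right, and Foxl2os at 0.37 lies opposite Foxl2 at -0.40.

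Counted over pairs, the antisense RNA and the coding gene its symbol names had the same sign in 4 of 8 pairs and opposite signs in 4. Coding genes that start within 1000 bases on the other strand were found for 8 RNAs of the set. Of these pairs 2 had the same sign and 6 opposite signs. The 7 of them with both genes tested had the same sign in 1. Over all genes tested, coding or not, 51.3% of 721 pairs with such starts did, so that background also holds pairs of coding genes. The 2 counts overlap, since the pairs of Brip1os, Cep83os, Foxl2os, Phtf1os and Zbtb11os1 enter both. No coding partner passed the adjusted threshold, neither the 8 named by a symbol nor the 8 that start within 1000 bases. Since 0.529% of all genes tested passed, so few partners would seldom include a call, and their count says little. Only the value of Kirrel3os passed among the RNAs, so most of these signs lie within error. The exons of 9 of the 24 RNAs placed in the annotation overlap those of a coding gene. Reads there cannot be told apart unless the libraries kept strand and counting used it. Mir22hg overlaps Tlcd2 on the same strand, where use of strand would not separate the reads either.

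None of the snoRNA hosts passed the threshold (0 of 8 tested), with 4 higher, 4 lower and a median log2 fold change of 0.08. None had an unadjusted p under 0.05 either (0 of 8). Gas5, first found in growth-arrested cells, had the highest pooled total of the class, 671, and a log2 fold change of 0.46 (-0.14 to 1.06) with p = 0.14 per the authors' deposited table. Snhg1 stood at -0.03 (-0.64 to 0.57) on a pooled total of 165 per the authors' deposited table. Snhg5 stood at 0.20 (-0.58 to 0.98) on a pooled total of 153 per the authors' deposited table. For Snhg1, Snhg5 and Snhg17 the whole interval lay within 2-fold, and for the 5 other hosts tested it did not.

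The remaining hosts were low. Snhg18 had the lowest value of those tested, -0.32 (-1.05 to 0.41) on a pooled total of 125 per the authors' deposited table. Snhg4 stood at 0.28 (-0.74 to 1.29), Snhg20 at 0.20, Snhg17 at -0.08 and Snhg15 at -0.15 per the authors' deposited table, on pooled totals between 92.1 and 114. Snhg8 stood at -0.56 (-1.64 to 0.53) and Snhg12 at 0.12 (-1.09 to 1.33) on pooled totals of 56.0 and 57.3 per the authors' deposited table, both without an adjusted p. Within the spans of the 9 hosts placed in the annotation lie 32 small nucleolar or Cajal body RNA genes, of which Gas5 holds 10, Snhg1 8 and Snhg12 5.

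**Figure D4:**
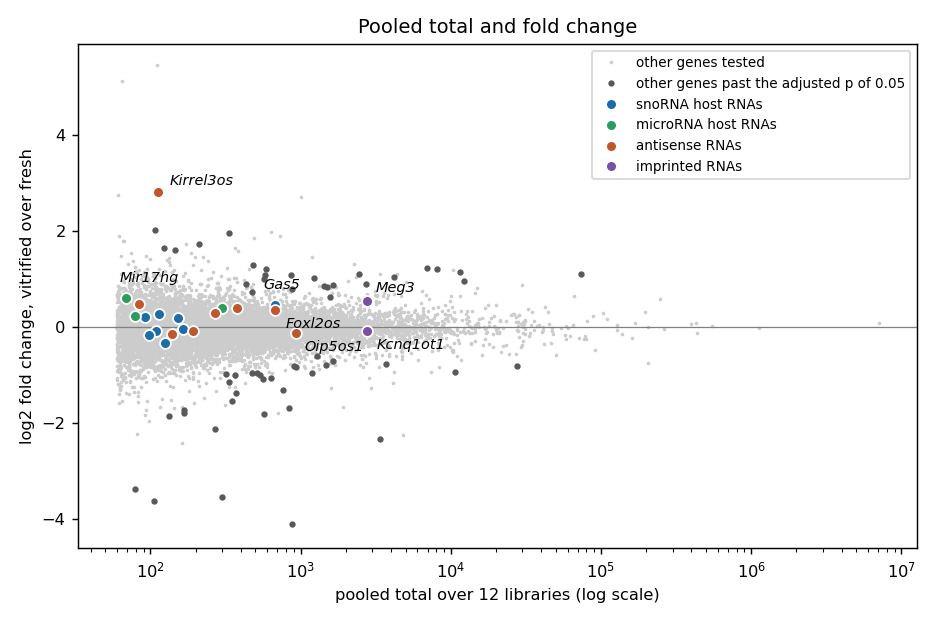
Pooled total over the 12 libraries (x axis, log scale) against log2 fold change of vitrified over fresh (y axis) for the genes tested in grey, with genes past the adjusted p of 0.05 darker and the 21 tested RNAs of the set in colour by class. All of them but Kirrel3os lie inside the grey cloud, and 15 of the 21 have totals below the median of 307 over all genes tested.

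The starts of 4 snoRNA hosts are printed because such hosts are known for a pyrimidine stretch there. Each window runs from 20 bases before to 20 after a RefSeq start, with the longest stretch of C or T bases in capitals. They are Gas5 (chr1:161035146-161035186), Snhg1 (chr19:8723467-8723507), Snhg5 (chr9:88522877-88522917, minus strand) and Snhg12 (chr4:132308658-132308698), all but Snhg5 on the plus strand.
Gas5: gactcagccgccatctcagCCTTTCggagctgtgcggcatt
Snhg1: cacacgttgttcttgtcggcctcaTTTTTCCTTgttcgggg
Snhg5: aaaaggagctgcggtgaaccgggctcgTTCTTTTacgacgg
Snhg12: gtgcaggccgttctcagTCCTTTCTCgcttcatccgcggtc

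A stretch of at least 6 such bases touched the window at 1 or more starts for 7 of the 9 hosts with a RefSeq start, against 48.2% of 27025 genes with one. It did so too for 7 of 7 antisense RNAs, 1 of 3 microRNA hosts and 0 of 2 imprinted RNAs, so other classes held such stretches as well. For Gas5, which has a pair of starts, the one with the longer stretch is shown. Of the printed hosts, Gas5, Snhg5 and Snhg12 had positive and Snhg1 negative values, all within error of 0. Snhg12, at 0.12, has no adjusted p. The hosts without such a stretch, Snhg15 and Snhg20, are not printed and stood at -0.15 and 0.20.

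All 3 microRNA hosts had higher values in vitrified follicles, and none passed the threshold (0 of 3) or an unadjusted p under 0.05 (0 of 3). Mir22hg, the host of miR-22, had a pooled total of 299.9 and a log2 fold change of 0.40 (-0.09 to 0.89) with p = 0.11 per the authors' deposited table, an interval within 2-fold. Its exons share 206 bases with Tlcd2 on the same strand, which stood at 0.45 (-0.23 to 1.13) per the authors' deposited table. Mir17hg stood at 0.61 (-0.54 to 1.75) on a pooled total of 69.2 per the authors' deposited table. Mir99ahg stood at 0.24 with p = 0.63 on a pooled total of 79.1 per the authors' deposited table, the lowest level per length of the set at 5.53 per kb of exon. For Mir17hg a change would have needed to be 4.40-fold and for Mir99ahg 3.46-fold to reach the largest p that still passed, 0.00025, given their standard errors, which join counting error and the spread between follicles.

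Of the imprinted RNAs, Kcnq1ot1 and Meg3 had the highest pooled totals of the set, 2784 and 2746 per the authors' deposited table. Per kb of exon the order turned, with 152 for Meg3 and 29.9 for Kcnq1ot1, whose annotated exon is 93092 bases long. Meg3 (chr12:109541001-109571726, GRCm38) stood at a log2 fold change of 0.54 (-0.09 to 1.17) with p = 0.092 and an adjusted p of 0.83 per the authors' deposited table, the lowest p of the set after Kirrel3os. Kcnq1ot1 (chr7:143203458-143296549) stood at -0.08 (-0.49 to 0.33) with p = 0.69 per the authors' deposited table. Its standard error of 0.21 was the smallest of the set, and its interval lay within 2-fold. H19, the host of miR-675, had a pooled total of 33.9, the lowest of the set, and a log2 fold change of -0.73 (-3.04 to 1.57) with no adjusted p per the authors' deposited table.

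Genes of the same imprinted regions were set beside them. At the Meg3 locus, the coding genes Dlk1, a Notch-like ligand, and Rtl1, derived from a retrotransposon, stood at 0.80 (-0.28 to 1.88) and 0.31 (-0.53 to 1.16) per the authors' deposited table, with the long RNA Rian at 0.08 (-0.63 to 0.80). Igf2, the growth factor gene beside H19, stood at -2.41 (-5.53 to 0.72) per the authors' deposited table, an interval that includes 0 and changes in either direction. Cdkn1c, an inhibitor of the cell cycle in the domain of Kcnq1ot1, stood at 0.88 (-0.04 to 1.80) with p = 0.060 per the authors' deposited table. None of the 4 coding neighbours tested passed the threshold (0 of 4) or an unadjusted p under 0.05 (0 of 4).

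Within the set, the levels per kb of exon ran from 5.53 for Mir99ahg to 204 for Foxl2os, with a median of 58.5 over the 24 RNAs with a place in the annotation. Below Foxl2os came Gas5 at 179, Mir22hg at 156, Meg3 at 152 and Oip5os1 at 112 per kb. Kirrel3os, at 29.8, lay close to Kcnq1ot1 and Cep83os (29.4). These are the authors' pooled totals divided by exon length, with no error of their own, so neighbours in this order cannot be ranked.

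The proteins that act on these RNAs were followed in the same comparison. Of 14 tested genes for snoRNA-protein complexes and their assembly, 5 had higher and 9 lower values, none passed the threshold (0) and none had an unadjusted p under 0.05 (0), with a median log2 fold change of -0.09. Ruvbl2, an ATPase of complex assembly, stood at -0.50 (-1.02 to 0.03) and Nop10, of the pseudouridylation complex, at -0.40 (-0.83 to 0.03) per the authors' deposited table. Of 14 genes of nonsense-mediated decay, 9 had higher and 5 lower values, and none passed (0) or had an unadjusted p under 0.05 (0), with a median of 0.12. The interval lay within 2-fold for 13 of them. The kinase gene Smg1 stood at 0.21 (-0.14 to 0.56) per the authors' deposited table.

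Of 15 tested genes for microRNA processing and action, none passed the adjusted threshold (0). At an unadjusted p under 0.05 there were 2, both lower, or 13.3%. Of all genes tested, 7.02% reached this in either direction and 3.79% with lower values. These genes too were chosen with earlier results of these data known, so the share gives no independent result. Ago2, the Argonaute that cleaves targets, stood at -0.59 (-1.01 to -0.17) with p = 0.0055 and an adjusted p of 0.30 per the authors' deposited table. Tnrc6b, a scaffold of the silencing complex, stood at -0.43 (-0.80 to -0.06) with p = 0.024 and an adjusted p of 0.56 per the authors' deposited table. Drosha, Dgcr8 and Dicer1, which cut the microRNA precursors, stood at -0.02, 0.16 and 0.09 per the authors' deposited table.

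Among 11 other tested long non-coding RNAs that are not part of the set, 1 rose, the paraspeckle RNA Neat1, at 1.22 (0.63 to 1.81) with an adjusted p of 0.015 per the authors' deposited table. Malat1, its neighbour in the genome, stood at 0.59 (0.05 to 1.12) with p = 0.031 and an adjusted p of 0.61 per the authors' deposited table. The remaining 9 had an unadjusted p above 0.05, with Cerox1 at -0.96 (-2.02 to 0.10) and Ftx at 0.68 (-0.16 to 1.52) per the authors' deposited table. The 1 that passed makes 9.09% of this list, against 0.529% of all genes tested. At an unadjusted p under 0.05 the share of the list was 18.2%, against 7.02%. The list was chosen with earlier results of these data known, so these shares give no independent result.

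Markers of the follicle's cells were compared as a whole. The 7 granulosa markers analysed had a summed pooled total of 2150255, 3 higher and 4 lower, while the 7 oocyte markers summed to 1077 and all had higher values in vitrified follicles. Of 6 theca markers 4 were higher, and all 3 endothelial markers and the 1 immune marker analysed were lower. An unadjusted p under 0.05 was reached by 2 theca markers and 1 granulosa marker, all higher, and by the immune marker. Insl3, a hormone of theca cells, stood at a log2 fold change of 2.70 with p = 0.0012 and an adjusted p of 0.14 per the authors' deposited table. Aldh1a1, a retinaldehyde dehydrogenase, stood at 1.19 with p = 0.00068 and an adjusted p of 0.098 per the authors' deposited table. The other theca markers were Cyp17a1 at 1.47, Lhcgr at 0.08, Ptch1 at -0.15 and Acta2 at -0.67 per the authors' deposited table. Each of these had an unadjusted p above 0.05. The granulosa receptor gene Fshr stood at 0.67 with p = 0.013, and the lysozyme gene Lyz2 of myeloid cells at -1.05 with p = 0.040, per the authors' deposited table. None of the cell markers passed the adjusted threshold (0), and their part in the values of the non-coding RNAs was not tested.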

How the data were processed

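The data were 1 table of the authors' comparison of 6 vitrified with 6 fresh follicles. The count in it, per the file headers, is a total for each gene, deposited as a pooled value; as 0.237% of totals were whole within 0.001, no count model was run. The deposited unadjusted p-value, its step-up adjusted form, the deposited signed fold change (a score of direction and size) and the deposited log2 fold change were used as given. Bowtie2, HISAT2, Partek, DESeq2 and mm10 appear in the submitters' processing notes, without their roles. The rule for counting reads and its use of strand were not given in the sources used here.

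Calls rest on the authors' test at an adjusted p of 0.05. A standard error was taken as the log2 fold change divided by the normal quantile of its p, and a 95% interval from it. Both take the test to be two-sided and normal. The error joins counting error and the spread between follicles. Members were found by symbol, leaving out genes that GENCODE M21 (GRCm38) or RefSeq lists as protein-coding. GENCODE placed 24 of 25, of which 1 (Oip5os1) by a RefSeq synonym, and Snhg4 was not placed. Windows of 50 bases, every 25, were searched in the transcripts of other genes. Python 3.11.15 and SciPy 1.17.1 were used.

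The members, lists and tests were chosen with earlier results of these data known. Every member could be named. Full values were meant for those past a threshold, the 4 of highest total and the 2 highest and 2 lowest fold changes of a class, and Gas5, Meg3, H19 and Kcnq1ot1, with their sense partners and up to 4 genes of lowest p in a companion list. Intervals for Cep83os, Cep83, Zbtb11os1 and Snhg12, and values for Zbtb11, Ints2, Med13, Rsbn1, Tlcd2, Rian, Drosha, Dgcr8, Dicer1, Insl3, Aldh1a1, Cyp17a1, Lhcgr, Ptch1, Acta2, Fshr and Lyz2, fall outside this and were chosen after their values were seen. Alternatives were another threshold, a t distribution, 2 filters on totals, centring, and leaving out RNAs that share windows or exon bases with other genes.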

Additional observations from a re-analysis of the deposited data

How the results depend on the processing

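The count of RNAs past the threshold stayed at 1 of those tested, Kirrel3os, with a threshold of 0.10, a pooled total of at least 100, no filter on totals, fold changes centred on the median of all genes tested, and the sets without RNAs that share at least 50% of their windows or any exon base with another gene. With a t distribution (10 degrees of freedom) it was 0, and the count over the companion lists was 0 as well, since no gene of the table passed (lowest adjusted p 0.0642). Whether that distribution suits the authors' test is not known here. Under the 6 other settings the adjusted p of Kirrel3os lay between 0.0021 and 0.0028. The threshold of 0.10 and the sets that leave out other RNAs keep that value unchanged by design, so they do not test it. Leaving out RNAs with any exon overlap in the GENCODE models leaves 3 (Kirrel3os, Oip5os1 and Snhg18). The median then became -0.12 for the set, against 0.24 as reported, -0.32 for snoRNA hosts and 1.35 for antisense RNAs. MicroRNA hosts and imprinted RNAs then gave no value. With no filter on totals the median of the imprinted RNAs was -0.08, against 0.23 as reported, because H19 then entered. Centring shifted each tested gene by the same 0.02. No paired analysis was possible because the table gives no value per follicle, and leaving out single follicles was not run for the same reason. The interval reached 2-fold or more for 11 of the 21 RNAs tested, and the part of depth in this was not separated from the spread between follicles.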
